A study of Mus musculus with 16 samples.

Results

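Collagen chains are modified and folded inside the cell and are cross-linked outside it, and 10 genes for these steps were followed in KPC1199 cells after loss of Sin3b and after interferon gamma (IFNγ). KPC1199 is a mouse pancreatic ductal adenocarcinoma (PDAC) line from the KPC mouse model of this cancer, so that every group shared this background. The genes were P4ha1, P4ha2, P4ha3, Plod1, Plod2, Plod3, Serpinh1, Lox, Loxl1 and Loxl2. They were taken by gene name from both deposited count tables, where they are 10 of 55738 features in the untreated experiment and 10 of 56980 in the IFNγ experiment. The sgCtrL cells, whose genotype is given as WT, carried a control guide, and the Sin3Bsg1 cells, given as Sin3B Knockout, carried a guide against Sin3b. The untreated experiment had 2 libraries of each genotype, and no treatment is named for it. The IFNγ experiment had 3 libraries in each of 4 groups, both genotypes without IFNγ and both with 10 ng/ml IFNγ for 24 h, which makes 16 libraries in 6 groups.

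The lines were made with the lentiCRISPR v2 vector and puromycin, only 1 Sin3b guide was sequenced, and whether a line was a clone or a pool is not given in the sources used here. Nothing states that the replicates were separate cultures, so the p-values measure the spread between these libraries, which may be technical. Control columns in the 2 tables are named for lacZ, and were assigned to sgCtrL as the remaining guide of each table.

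Fibrillar collagens need hydroxylated proline to hold their triple helix at body temperature, and P4ha1, P4ha2 and P4ha3 are the alternative catalytic subunits of the prolyl 4-hydroxylase. Plod1, Plod2 and Plod3 hydroxylate lysine, with Plod2 acting on the telopeptides where stable cross-links form and Plod3 also able to add sugars. Serpinh1 (Hsp47) is the collagen-specific chaperone of the endoplasmic reticulum, and Lox, Loxl1 and Loxl2 oxidise lysine in the secreted fibres to start cross-linking. In pancreatic tumors the stiff collagen matrix is attributed mostly to fibroblasts, while cancer cells also express part of this machinery, and P4ha1, P4ha2, Plod2, Lox and Loxl2 are textbook targets of the hypoxia-inducible factors.

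The sequence behind the genotype is the Sin3Bsg1 guide, shown with its PAM in capitals because every genotype comparison rests on it. It lies at chr8:73449982-73450001 on the plus strand of GRCm39, in coding sequence of exon 1 of the transcript Sin3b-201, and its target is:
Sin3Bsg1: tggctcccgctggggtcgttCGG

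RefSeq promoter windows of GRCm38.p6, 250 bases before to 50 bases after the start, were at hand for 6 of the 10 members. They were searched on both strands for ACGTG and GCGTG, the cores of the hypoxia response element, for TTCNNNGAA, the gamma-activated site, for GAAANNGAA, a core of the interferon-stimulated response element, and for CACGTG, the E-box, which contains ACGTG. Of all 32851 windows of this length, 19.6% held ACGTG, 32.4% GCGTG, 8.30% TTCNNNGAA, 8.56% GAAANNGAA and 7.15% CACGTG. The 250 bases before the start are shown for Serpinh1 and Plod3, the members that changed with IFNγ in both genotypes, and for P4ha1, whose genotype effect differed between the experiments, with the matches in capitals. They lie at chr7:99353240-99353489 (minus strand), chr5:136986769-136987018 (plus strand) and chr10:59323046-59323295 (plus strand).
Serpinh1: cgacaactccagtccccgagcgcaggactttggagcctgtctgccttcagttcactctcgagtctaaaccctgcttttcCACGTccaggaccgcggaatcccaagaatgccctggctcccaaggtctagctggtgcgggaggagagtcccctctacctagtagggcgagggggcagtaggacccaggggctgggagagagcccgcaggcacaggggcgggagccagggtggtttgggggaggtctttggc
Plod3: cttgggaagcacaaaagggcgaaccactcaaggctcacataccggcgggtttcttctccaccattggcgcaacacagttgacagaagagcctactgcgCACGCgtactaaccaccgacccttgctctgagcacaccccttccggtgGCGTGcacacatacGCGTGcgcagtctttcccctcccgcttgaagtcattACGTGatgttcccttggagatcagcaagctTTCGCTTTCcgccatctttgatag
P4ha1: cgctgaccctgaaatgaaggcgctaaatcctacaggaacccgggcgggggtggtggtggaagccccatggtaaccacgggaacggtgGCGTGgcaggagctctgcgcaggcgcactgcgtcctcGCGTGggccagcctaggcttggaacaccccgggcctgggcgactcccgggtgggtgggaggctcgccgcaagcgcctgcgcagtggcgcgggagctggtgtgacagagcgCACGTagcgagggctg

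Plod3 held the only GAAANNGAA match of the 6 windows, on the minus strand, together with 1 ACGTG and 3 GCGTG. The leftmost base of the GAAANNGAA match in the window as shown was at position -24 from the start. Positions of the other matches are also those of the leftmost base as shown, whichever strand holds the motif. Serpinh1 held 1 ACGTG at -171 and none of the other motifs. P4ha1 held ACGTG at -16 and 2 matches of GCGTG further upstream, P4ha2 held 2 matches of each of these cores, Plod1 held GCGTG 2 times, and P4ha3 held none of the 5 motifs. No window held TTCNNNGAA or CACGTG. These matches are letters in a window and were not tested for binding.

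Estimated counts summed to 29683181 to 32311721 per library in the untreated experiment and to 18128055 to 27056903 in the IFNγ experiment. Sin3b, the targeted gene, lay at 82.9 to 88.0 CPM (counts divided by the TMM-scaled library size and set to a common total, the unit used between libraries throughout) in untreated sgCtrL and at 33.9 to 36.3 CPM in untreated Sin3Bsg1, and at 80.4 to 95.6 against 33.6 to 39.4 CPM in the IFNγ experiment. It was 2.43-fold lower untreated, 2.36-fold lower without IFNγ and 2.33-fold lower with IFNγ. Replicate 1 of sgCtrL with IFNγ stood apart from its group: its mean chi-square per gene against the other replicates of its group was 23.3 and 19.5, where the other pairs within groups had 2.41 to 9.65. Several of the results that use it, though not all, are therefore also given without it. The epithelial keratins Krt8, Krt18 and Krt19 lay at 942 to 2899 TPM (counts divided by gene length and set to a common total in each library, the unit used between genes), while of the 9 fibroblast markers Thy1, Dcn, Lum, Fap and Postn, of the 4 leukocyte markers Ptprc, Cd3e and Lyz2, and of the endothelial markers Cdh5, Kdr and Pecam1 stayed under 0.5 TPM in every library. The other listed markers were present: Pdgfra at 7.20 to 76.8 TPM, Pdgfrb at 2.01 to 14.6 TPM, Dpt at up to 24.9 TPM and Acta2 at up to 6.22 TPM for fibroblasts, and Cd68 at 9.57 to 14.6 TPM for leukocytes. In bulk RNA, fewer cells of a type and less RNA per cell cannot be told apart.

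On the length-scaled TPM, Serpinh1 was the most abundant member in all 6 groups, with means from 142 ± 6.09 TPM (SD, n = 3) in sgCtrL with IFNγ to 222 ± 6.63 TPM (SD, n = 3) in Sin3Bsg1 without IFNγ. Loxl2 followed at 77.3 to 150 TPM and Plod3 at 67.8 to 84.6 TPM, and the libraries of these 3 genes did not overlap within any group. P4ha1 came next in every group, at 25.4 to 56.5 TPM. The order below it differed between the experiments: P4ha3 lay at 22.1 ± 0.0944 TPM (SD, n = 2) in untreated sgCtrL, above P4ha2 at 20.7 ± 0.716 TPM (SD, n = 2), and was the lowest of the 8 expressed members, at 5.10 to 6.32 TPM, in all 4 groups of the IFNγ experiment. Plod2 and Plod1 overlapped in untreated sgCtrL, at 17.3 ± 0.442 and 17.1 ± 0.768 TPM (SD, n = 2), as did P4ha3 and Plod2 in untreated Sin3Bsg1, at 14.7 ± 1.98 and 14.7 ± 0.651 TPM (SD, n = 2).

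Lox and Loxl1 were at the limit of detection. Lox had 0 to 4 counts per library, and 3 counts was set as the floor. Loxl1 had 0 to 5 counts, and its 5 counts fell in replicate 3 of sgCtrL with IFNγ while the other 2 libraries of that group had 0. Neither gene passed edgeR's filter on low counts, so neither was tested, no fold is given, and 3 counts correspond to 0.0929 to 0.166 CPM in these libraries. The 8 other members passed in all fits. Of the lysyl oxidases, only Loxl2 could therefore be compared among the members.

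**Figure D1:**
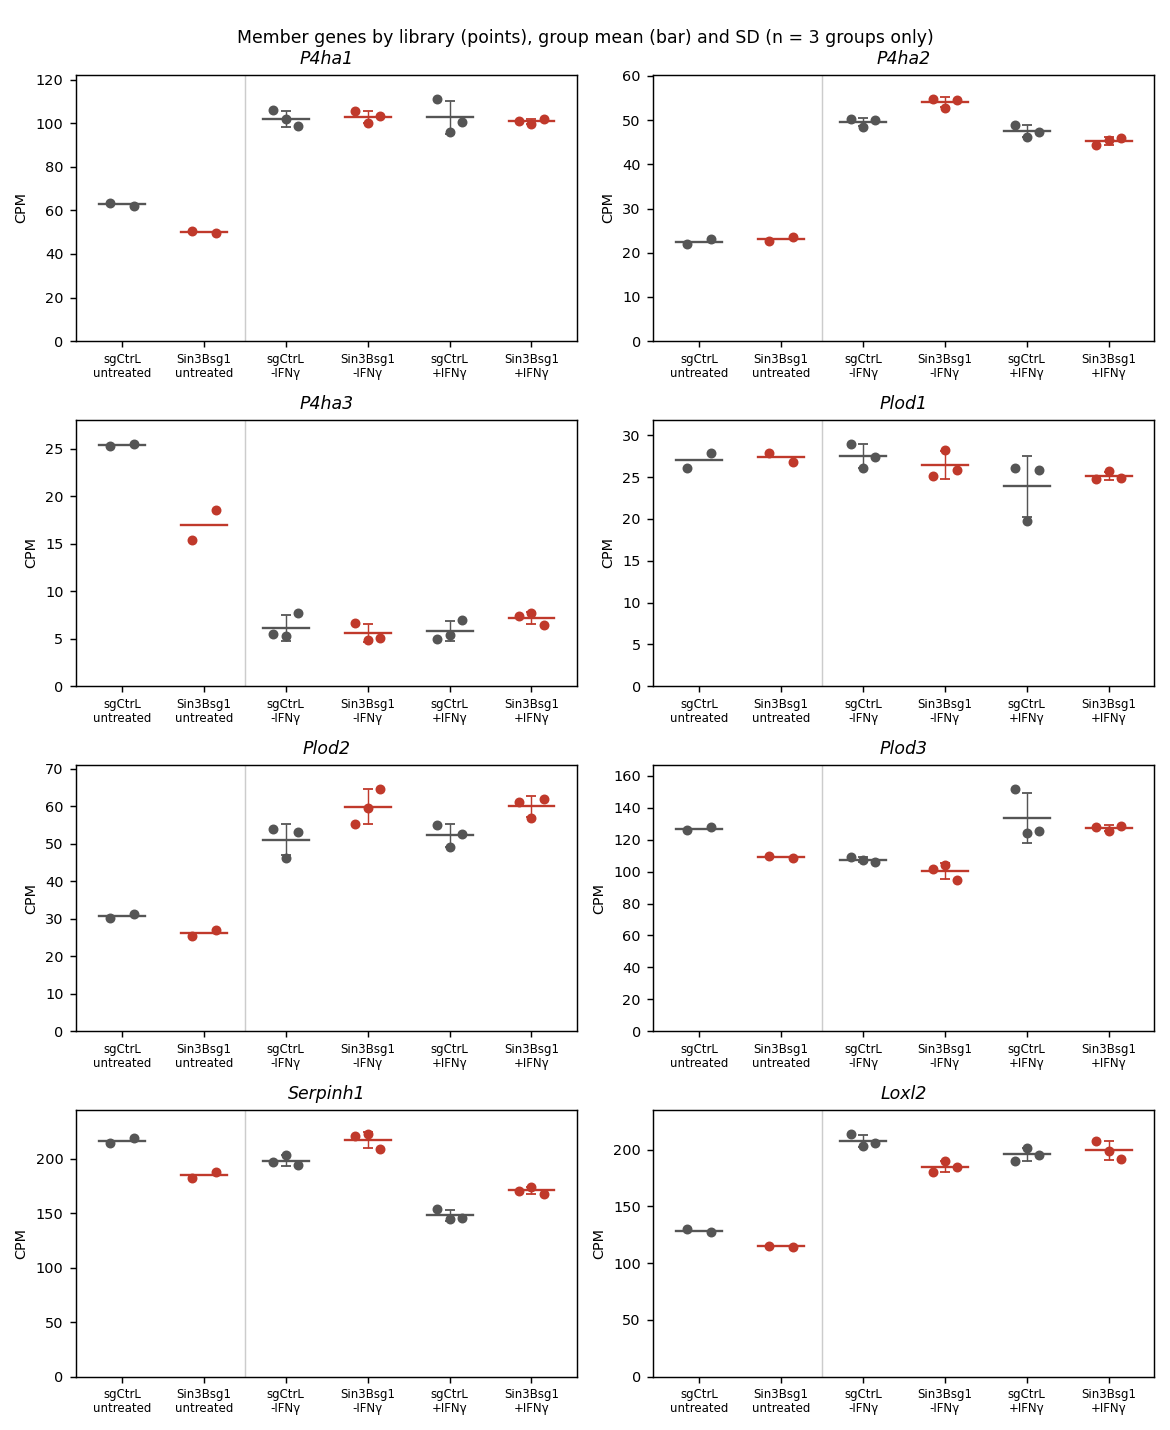
Each panel plots the CPM of 1 member against the 6 groups, with a point per library, a bar at the group mean and, for the groups of 3, the SD; grey is sgCtrL and red is Sin3Bsg1, and the line separates the untreated from the IFNγ experiment. Serpinh1 fell from 214.7 and 218.9 to 182.7 and 187.8 CPM in the untreated experiment and was above sgCtrL in every library of the IFNγ experiment with the same treatment, while P4ha3 was above 15 CPM only in the untreated experiment.

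In the untreated experiment, loss of Sin3b went with lower levels of most of the expressed members. In edgeR's quasi-likelihood test, with Benjamini-Hochberg adjusted p under 0.05 over the 14820 genes tested, 6 of the 8 members were lower in Sin3Bsg1 and 0 were higher, where 15.7% of all genes tested were lower and 15.0% higher. They were P4ha1, P4ha3, Plod2, Plod3, Serpinh1 and Loxl2, which take in all 3 roles and the chaperone, and their folds ran from 1.121 to 1.499. The median log2 fold change over the 8 members was -0.22, against 0.00 over all genes. P4ha2 and Plod1 were not called.

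Among the prolyl 4-hydroxylase subunits, P4ha1 (ENSMUSG00000019916, chr10:59159092-59209126 in GRCm39) had 63.37 and 61.99 CPM in sgCtrL and 50.5 and 49.8 CPM in Sin3Bsg1. Both Sin3Bsg1 libraries lay under both sgCtrL libraries, a log2 fold change of -0.32 (standard error, SE, 0.0436, adjusted p = 3.96e-05 in edgeR). P4ha3 (ENSMUSG00000051048) showed the largest change of the members, from 25.3 and 25.5 CPM to 15.4 and 18.5 CPM, a log2 fold change of -0.58 (SE 0.0887, adjusted p = 0.00012 in edgeR). P4ha2 had 21.9 and 23.1 CPM in sgCtrL and 22.6 and 23.5 CPM in Sin3Bsg1, with overlapping libraries and a 95% interval of the log2 fold change from -0.12 to 0.19.

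Of the lysyl hydroxylases, Plod3 (ENSMUSG00000004846, chr5:137015827-137025502) had 125.9 and 127.9 CPM in sgCtrL and 109.6 and 108.2 CPM in Sin3Bsg1, a log2 fold change of -0.22 (SE 0.0321, adjusted p = 8e-05 in edgeR). Plod2 (ENSMUSG00000032374, chr9:92424119-92490494) had 30.2 and 31.4 CPM against 25.4 and 26.9 CPM, a log2 fold change of -0.23 (SE 0.0667, adjusted p = 0.0149 in edgeR). The Plod2 call was the least firm of the 6: it was lost in DESeq2 (adjusted p = 0.0759), without Sin3Bsg1 replicate 1 (edgeR adjusted p = 0.0775) and without sgCtrL replicate 2 (edgeR adjusted p = 0.096). Plod1, which acts on lysine in the helical part, had 26.1 and 27.9 against 27.9 and 26.8 CPM, with overlapping libraries and a 95% interval from -0.13 to 0.16 on the log2 scale.

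Serpinh1 (ENSMUSG00000070436, chr7:98994220-99005076) had 214.7 and 218.9 CPM in sgCtrL and 182.7 and 187.8 CPM in Sin3Bsg1. It was 1.17-fold lower, with a log2 fold change of -0.23 (SE 0.0272, adjusted p = 1.26e-05 in edgeR). Loxl2 (ENSMUSG00000034205, chr14:69846209-69933283) had 130.1 and 127.1 CPM against 115.0 and 114.4 CPM and was 1.12-fold lower (log2 fold change -0.16, SE 0.0319, adjusted p = 0.00102 in edgeR). For both genes the groups did not overlap, and neither call was lost when a library was left out.

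Other genes of collagen processing fell with the members. Of 25 listed partner genes, 21 were tested, 10 were lower and 3 higher, with a median log2 fold change of -0.25. All 9 hydroxylase partners and prolyl 3-hydroxylases were tested and 5 were lower: P3h1, P3h2 and P3h4 of the prolyl 3-hydroxylase family, Crtap, which works in complex with P3h1, and Fkbp10, a prolyl isomerase that binds collagen. P4hb, the protein disulfide isomerase that is the shared second subunit of the prolyl 4-hydroxylase, was at 1802 ± 11.5 CPM in sgCtrL and 1836 ± 14.6 CPM in Sin3Bsg1 (SD, n = 2; edgeR adjusted p = 0.214). Both further lysyl oxidases were lower. Loxl4 went from 248 ± 0.661 to 152 ± 1.48 CPM (SD, n = 2; log2 fold change -0.70, SE 0.0262, adjusted p = 4.05e-11 in edgeR), and Loxl3 from 35.3 ± 0.309 to 26.1 ± 0.223 CPM (SD, n = 2; log2 fold change -0.43, SE 0.0612, adjusted p = 6.06e-05 in edgeR).

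P3h2, which hydroxylates proline at the 3 position, was lower by a log2 fold change of -0.42 (edgeR adjusted p = 0.00528). Pcolce2, an enhancer of the proteinase that removes the C-propeptide, was higher by 0.35 (edgeR adjusted p = 0.0105), and leaving out Sin3Bsg1 replicate 2 or sgCtrL replicate 2 took its adjusted p to 0.0589 and 0.125. The remaining rises were in Colgalt1, a collagen galactosyltransferase, at 0.09, and in Mia2, an export factor, at 0.18. The fibril-forming collagen chains are the substrates of the members. Of 11 listed chains 8 were tested, 4 were lower and 1 was higher, with a median log2 fold change of -0.91: Col3a1 was lower by -1.20, Col5a1 by -1.31, Col1a1 by -1.62 and Col11a1 by -1.06 on the log2 scale, and Col11a2 was higher by 1.99 from 0.757 ± 0.173 CPM (SD, n = 2).

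The summed level of the fibroblast markers was also lower in Sin3Bsg1 in this experiment. The summed TPM of the 9 markers was 31.3 to 31.7 in sgCtrL and 9.97 to 11.02 in Sin3Bsg1, most of it Pdgfra (25.6 to 25.8 against 7.20 to 7.75 TPM) and Pdgfrb (4.88 to 5.19 against 2.01 to 2.55 TPM), with Postn at 0 in every library and Lum and Fap at 3 counts or fewer. The summed epithelial markers lay at 5381 to 5398 TPM in sgCtrL and 7079 to 7186 TPM in Sin3Bsg1. Their part in the lower level of the members was not tested.

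Without IFNγ in the IFNγ experiment, the same genotype comparison called Plod2 and Loxl2 among the members. Plod2 and Serpinh1 had point estimates of the opposite sign to those of the untreated experiment. So had P4ha1 and Plod1, whose estimates without IFNγ were near 0, at 0.01 and -0.06 on the log2 scale. Over 14913 genes, 1 member was higher and 1 was lower in Sin3Bsg1, where 7.89% of all genes tested were higher and 9.32% lower. Counts this small among 8 members are no result about the members as a group. The median log2 fold change over the 8 members was -0.02, against -0.01 over all genes. The biological coefficient of variation was 6.78% here and 2.87% in the untreated experiment.

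Plod2 was the member called higher, with 53.8, 46.3 and 53.1 CPM in sgCtrL and 55.3, 59.6 and 64.6 CPM in Sin3Bsg1. Every Sin3Bsg1 library lay above every sgCtrL library, and the log2 fold change was 0.23 (SE 0.0717, adjusted p = 0.0369 in edgeR). This call was lost without Sin3Bsg1 replicate 2 (adjusted p = 0.0884) or 3 (0.164) and without sgCtrL replicate 2 (0.19) or 3 (0.0565), all by edgeR and all of the groups without IFNγ. Loxl2 was the member called lower, with 213.6, 203.2 and 206.2 CPM in sgCtrL and 180.5, 189.7 and 184.8 CPM in Sin3Bsg1, again without overlap. Its log2 fold change was -0.17 (SE 0.0455, adjusted p = 0.0182 in edgeR), close in size to the -0.16 of the untreated experiment, and 5 of the 12 libraries of the IFNγ experiment, left out in turn, took its edgeR adjusted p to 0.0515 to 0.0911: replicates 1 and 3 of sgCtrL and of Sin3Bsg1 without IFNγ, and replicate 2 of Sin3Bsg1 with IFNγ.

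Serpinh1 had 197.2, 204.0 and 194.2 CPM in sgCtrL and 221.2, 222.7 and 208.9 CPM in Sin3Bsg1. The libraries did not overlap, while the edgeR adjusted p of 0.0533 for a log2 fold change of 0.13 just missed the threshold. It passed in DESeq2 (adjusted p = 0.0212), without replicate 1 of sgCtrL with IFNγ, the library that stood apart (edgeR adjusted p = 0.00826), and when 1 of 5 other libraries was left out: each replicate of Sin3Bsg1 with IFNγ, replicate 2 of sgCtrL with IFNγ and replicate 3 of Sin3Bsg1 without IFNγ. P4ha2 had 50.2, 48.5 and 50.1 CPM in sgCtrL against 54.8, 52.7 and 54.6 CPM in Sin3Bsg1, with a log2 fold change of 0.13 and an edgeR adjusted p of 0.0836 (0.0388 without the library that stood apart; 4 of the 12 libraries, left out in turn, brought it under the threshold).

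P4ha1 had 98.6 to 105.9 CPM in sgCtrL and 100.1 to 105.6 CPM in Sin3Bsg1, and the 95% interval of its log2 fold change ran from -0.10 to 0.13. P4ha3 had 5.26 to 7.70 against 4.92 to 6.66 CPM, and with values this low its interval was wide, from -0.51 to 0.24. Plod1 (-0.25 to 0.14) and Plod3 (-0.24 to 0.04) also had intervals that included 0. Plod3 lay at 105.8 to 109.2 CPM in sgCtrL and at 94.8 to 104.4 CPM in Sin3Bsg1 and its libraries did not overlap, but its edgeR adjusted p was 0.352.

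With IFNγ, the chaperone was the only member called in the genotype comparison: 1 member was higher and 0 were lower in Sin3Bsg1, where 8.62% of all genes tested were higher and 7.89% lower. Serpinh1 had 154.1, 144.5 and 145.9 CPM in sgCtrL and 170.4, 174.6 and 168.1 CPM in Sin3Bsg1. All Sin3Bsg1 libraries lay above all sgCtrL libraries, a 1.15-fold difference with a log2 fold change of 0.21 (SE 0.045, adjusted p = 0.00446 in edgeR). Without the sgCtrL library that stood apart, the log2 fold change was 0.25 (edgeR adjusted p = 0.000286), and no library left out took the call away.

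Plod2 had 54.9, 49.1 and 52.6 CPM in sgCtrL and 61.2, 56.9 and 61.9 CPM in Sin3Bsg1 under IFNγ. Its groups did not overlap, its log2 fold change of 0.20 was close to the 0.23 without IFNγ, and its edgeR adjusted p was 0.0664 (0.0219 without the library that stood apart, and 0.0429 with a term for the replicate number). Loxl2 had 190.3, 201.6 and 195.3 CPM in sgCtrL against 207.7, 199.1 and 191.4 CPM in Sin3Bsg1, with overlap and a 95% interval from -0.07 to 0.12. The 3 prolyl 4-hydroxylase subunits, Plod1 and Plod3 were not called. P4ha3 was estimated higher by 0.31 with an interval from -0.06 to 0.68, and Plod1 varied most in sgCtrL with IFNγ, at 26.1, 19.7 and 25.9 CPM. Without the library that stood apart, the P4ha3 estimate was 0.24 and that of Plod3 went from -0.07 to 0.04, neither called.

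**Figure D2:**
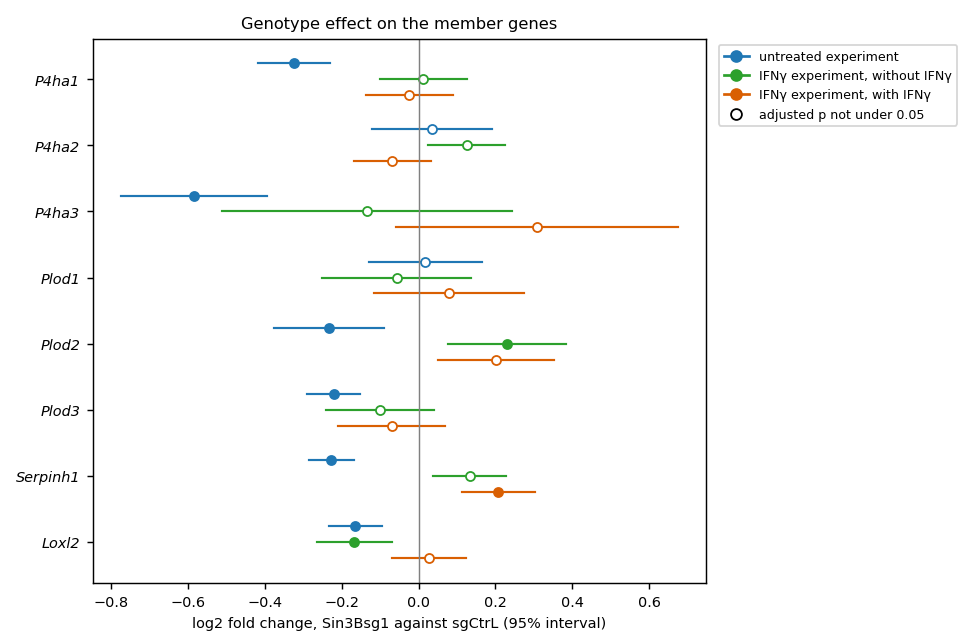
Log2 fold changes of Sin3Bsg1 against sgCtrL (horizontal axis) with 95% intervals for the 8 tested members in the 3 genotype comparisons; filled points passed the adjusted p of 0.05 in edgeR and open points did not. For Plod2 and Serpinh1 the untreated estimates of -0.23 lie to the left of 0 and both estimates of the IFNγ experiment lie to the right of it, whereas Loxl2 was at -0.16 and -0.17 without IFNγ in both experiments.

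Among the partner genes of the IFNγ experiment, 1 of 21 tested was higher and 3 were lower without IFNγ, and 1 was higher and 3 were lower with IFNγ, with medians of -0.01 and -0.03 on the log2 scale. Colgalt1 was the gene higher in both, at 230 ± 3.62 CPM in sgCtrL and 295 ± 7.10 CPM in Sin3Bsg1 without IFNγ (SD, n = 3; log2 fold change 0.36, edgeR adjusted p = 0.00047). Loxl4, the further lysyl oxidase with the larger fall in the untreated experiment, was lower in Sin3Bsg1 in both conditions as well. It lay at 201 ± 1.12 against 145 ± 1.31 CPM without IFNγ (SD, n = 3; log2 fold change -0.48, edgeR adjusted p = 1.34e-06) and at 147 ± 3.54 against 113 ± 4.98 CPM with IFNγ (SD, n = 3; log2 fold change -0.38, edgeR adjusted p = 1.59e-05). Sec24d, a coat protein that procollagen needs to leave the endoplasmic reticulum, was lower by -0.27 and -0.22 on the log2 scale, after -0.27 in the untreated experiment.

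P3h4 was called lower only without IFNγ (-0.19, edgeR adjusted p = 0.0121) and P3h2 only with IFNγ (-0.46, edgeR adjusted p = 0.0271). P3h2 had a similar estimate of -0.38 without IFNγ, and a difference between the conditions was not called for any partner gene. Its call with IFNγ was lost without replicate 1 or 2 of sgCtrL (adjusted p = 0.0653 and 0.0715) or replicate 2 or 3 of Sin3Bsg1 with IFNγ (0.101 and 0.115), and that of P3h4 without replicate 3 of Sin3Bsg1 or replicate 2 of sgCtrL without IFNγ (0.0549 and 0.0547), all by edgeR.

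The collagen chains split in this experiment. Col1a1 rose in Sin3Bsg1, from 11.7 ± 0.921 to 30.3 ± 0.573 CPM without IFNγ (SD, n = 3; log2 fold change 1.37, edgeR adjusted p = 1.23e-08) and from 6.40 ± 0.0588 to 18.6 ± 1.79 CPM with IFNγ (SD, n = 3; log2 fold change 1.54, edgeR adjusted p = 9.17e-09). Col3a1, far more abundant, fell from 1126 ± 22.3 to 824 ± 13.7 CPM without IFNγ and from 688 ± 53.6 to 555 ± 8.49 CPM with IFNγ (SD, n = 3). Col5a1 was not called in either condition. Of 8 chains tested, 2 were higher and 1 lower without IFNγ, and 1 was higher and 1 lower with IFNγ.

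The summed level of the fibroblast markers was lower in Sin3Bsg1 in the IFNγ experiment too, but single markers moved in both directions. Their sum went from 109.5 to 111.7 TPM summed in sgCtrL to 87.9 to 95.8 TPM in Sin3Bsg1 without IFNγ, and from 73.1 to 73.7 to 61.4 to 66.8 TPM with IFNγ. Pdgfra was lower in Sin3Bsg1, at 73.1 to 76.8 against 60.9 to 64.9 TPM and at 49.4 to 50.6 against 40.7 to 44.9 TPM, and so was Dpt, at 22.2 to 24.9 against 11.8 to 15.9 TPM and at 9.27 to 9.97 against 6.33 to 6.90 TPM. Pdgfrb was higher in Sin3Bsg1, as Serpinh1 and Plod2 were, at 12.3 to 12.6 against 14.0 to 14.6 TPM without IFNγ and at 7.53 to 7.91 against 8.32 to 10.04 TPM with IFNγ. The part of the markers in these results was not tested.

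**Figure D3:**
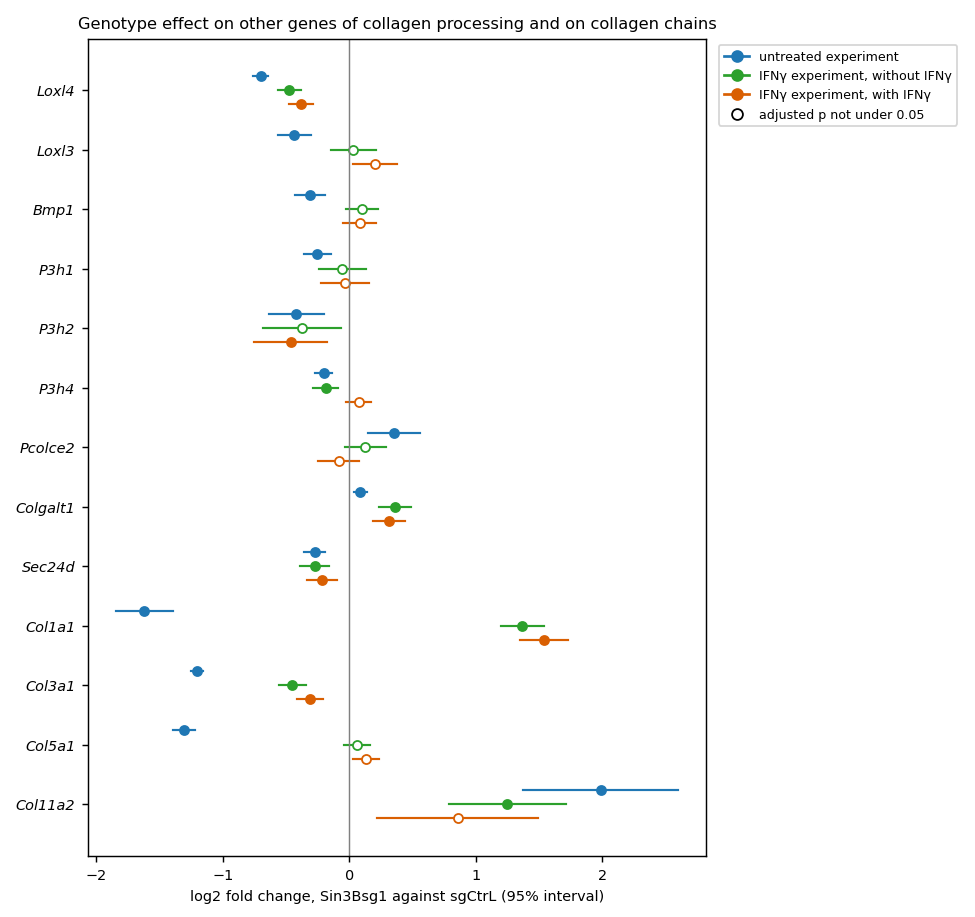
Log2 fold changes of Sin3Bsg1 against sgCtrL (horizontal axis) with 95% intervals for named partner genes and 4 collagen chains in the 3 genotype comparisons; filled points passed the adjusted p of 0.05 in edgeR. Loxl4, Sec24d and Col3a1 lie to the left of 0 in all 3 comparisons, Colgalt1 lies to the right in all 3, and Col1a1 changes side, from -1.62 untreated to 1.37 and 1.54.

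The genotype effect was then compared between the experiments in a joint fit of all 16 libraries, as the effect without IFNγ minus the untreated effect. Of the 8 members tested, 3 were called with a higher effect in the IFNγ experiment and 0 with a lower one, where 3.09% of the 15620 genes tested were higher and 3.62% lower. For Plod2 the difference was 0.46 on the log2 scale (SE 0.11, adjusted p = 0.0144 in edgeR), for Serpinh1 0.36 (SE 0.0651, adjusted p = 0.00168 in edgeR) and for P4ha1 0.34 (SE 0.0792, adjusted p = 0.0136 in edgeR). The Serpinh1 difference stayed under the threshold without any 1 of the 16 libraries, at an edgeR adjusted p of 0.000107 to 0.0171.

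The P4ha1 and Plod2 calls were lost without some of the 4 untreated libraries. Leaving out replicate 1 or 2 of untreated Sin3Bsg1 or replicate 1 of untreated sgCtrL took the edgeR adjusted p of P4ha1 to 0.0568, 0.0744 and 0.0754, and leaving out replicate 1 of untreated Sin3Bsg1 or replicate 2 of untreated sgCtrL took that of Plod2 to 0.0904 and 0.0771. P4ha3 had a difference of 0.45 that was not called, with a 95% interval from -0.02 to 0.93, and the Loxl2 difference of 0.00 had an interval from -0.14 to 0.14. Among the partner genes, Bmp1, the proteinase that removes the C-propeptide, and the lysyl oxidases Loxl3 and Loxl4 were called higher, and among the collagen chains Col1a1, Col3a1 and Col5a1 were. The Loxl3 call was lost without any 1 of the 4 untreated libraries (edgeR adjusted p = 0.0582 to 0.0727), the Bmp1 call without replicate 1 of untreated sgCtrL (0.0704), and the Loxl4 call without any 1 of the 4 untreated libraries or the 6 libraries without IFNγ (0.0543 to 0.139). The 2 experiments also differed in library depth and in the level of several members in control cells, and these differences cannot be told apart.

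Within the IFNγ experiment, IFNγ itself changed the chaperone and Plod3 in both genotypes. In sgCtrL, 1 member was higher and 1 lower with IFNγ, where 15.7% of all genes tested were higher and 14.5% lower, and in Sin3Bsg1 1 member was higher and 2 lower, where 16.1% were higher and 12.3% lower. These shares of the members are near those of all genes, and the medians over the 8 members were -0.07 and -0.01 on the log2 scale against 0.00 and 0.01 over all genes.

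Serpinh1 fell in both genotypes. In sgCtrL it went from 197.2, 204.0 and 194.2 CPM without to 154.1, 144.5 and 145.9 CPM with IFNγ, a log2 fold change of -0.42 (SE 0.045, adjusted p = 2.58e-06 in edgeR), or -0.46 without the library that stood apart. In Sin3Bsg1 it went from 221.2, 222.7 and 208.9 to 170.4, 174.6 and 168.1 CPM, a log2 fold change of -0.35 (SE 0.0447, adjusted p = 1.95e-05 in edgeR). The groups did not overlap in either genotype, and the level in Sin3Bsg1 with IFNγ lay between the 2 levels of sgCtrL.

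Plod3 rose in both genotypes. In sgCtrL it went from 109.2, 107.2 and 105.8 CPM to 151.6, 124.1 and 125.2 CPM, and the highest of these values was the library that stood apart. The log2 fold change was 0.31 with it (SE 0.0661, adjusted p = 0.00189 in edgeR) and 0.20 without it (edgeR adjusted p = 0.00173), so this library moved the value by over 1.5 times while the call held. In Sin3Bsg1 Plod3 went from 101.4, 104.4 and 94.8 CPM to 127.8, 125.4 and 128.7 CPM, a log2 fold change of 0.35 (SE 0.0658, adjusted p = 0.000843 in edgeR), and every treated library lay above every library without IFNγ.

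P4ha2 fell with IFNγ in Sin3Bsg1, from 54.8, 52.7 and 54.6 CPM to 44.3, 45.5 and 46.0 CPM (log2 fold change -0.26, SE 0.0467, adjusted p = 0.000589 in edgeR). In sgCtrL it had 50.2, 48.5 and 50.1 CPM without and 49.0, 46.3 and 47.3 CPM with IFNγ, with overlap, a log2 fold change of -0.06 and a 95% interval from -0.16 to 0.04. The difference between these effects did not pass the test (interaction -0.19, unadjusted p = 0.0107, edgeR adjusted p = 0.724). Loxl2 had an estimate of -0.09 in sgCtrL and 0.11 in Sin3Bsg1, neither called, with an interaction of 0.19 (unadjusted p = 0.00868, edgeR adjusted p = 0.676).

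No member passed the interaction test of genotype and IFNγ in edgeR, where 12 genes of all 14913 (0.0805%) were higher and 5 (0.0335%) lower. P4ha2 and Loxl2 were the 2 members with an unadjusted p under 0.05. The 95% intervals of the interaction were -0.06 to 0.21 for Serpinh1 and -0.17 to 0.23 for Plod3 on the log2 scale, so a difference of that size in their IFNγ response between the genotypes was within what these libraries allow. The interaction of P4ha3 was 0.44 with an interval from -0.08 to 0.97. Without the library that stood apart, the interaction was 0.13 for Plod3, 0.11 for Serpinh1 and 0.36 for P4ha3. It was then -0.17 for P4ha2 and 0.18 for Loxl2, and no member was called.

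P4ha1 and Plod2 had IFNγ estimates close to 0 in both genotypes. P4ha1 had 0.01 in sgCtrL and -0.03 in Sin3Bsg1 on the log2 scale, and Plod2 had 0.03 and 0.01, with 95% intervals that reached at most 0.19 from 0. In sgCtrL the P4ha1 estimate was -0.06 without the library that stood apart. Plod1 had -0.21 in sgCtrL (edgeR adjusted p = 0.105) and -0.07 in Sin3Bsg1, and was called lower in sgCtrL only without that library (log2 fold change -0.29, edgeR adjusted p = 0.0261).

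**Figure D4:**
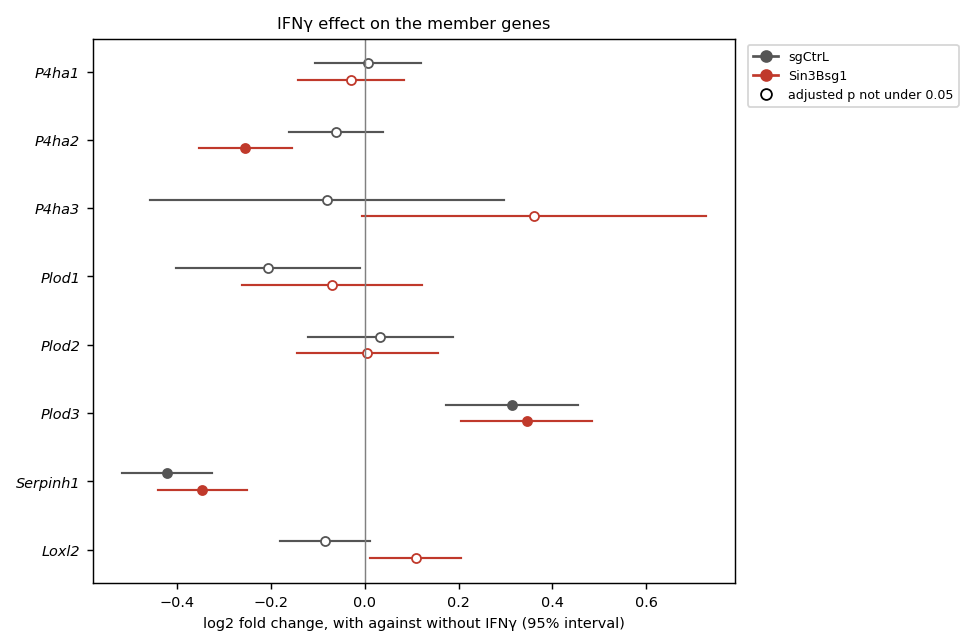
Log2 fold changes with against without IFNγ (horizontal axis) with 95% intervals for the 8 tested members, grey for sgCtrL and red for Sin3Bsg1; filled points passed the adjusted p of 0.05 in edgeR. Serpinh1 lies at -0.42 and -0.35 and Plod3 at 0.31 and 0.35, and the intervals of the 2 genotypes overlap for every member but Loxl2, where they meet at 0.01.

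The partner genes and collagen chains mostly fell with IFNγ where they were called. Of 21 partner genes tested, 8 were lower and 1 was higher in each genotype, with medians of -0.12 in sgCtrL and -0.10 in Sin3Bsg1 on the log2 scale. Loxl4 was lower by -0.45 and -0.36 and Bmp1 by -0.40 and -0.42, P3h1 was lower by -0.33 and -0.30, and P3h2 was the gene higher, by 0.54 in sgCtrL and 0.45 in Sin3Bsg1. The P3h2 rise in Sin3Bsg1 lost its call without replicate 1 or 2 with IFNγ and without replicate 1 or 3 without IFNγ, at edgeR adjusted p of 0.0504 to 0.178. That of P3h1 in Sin3Bsg1 lost its call without replicate 2 or 3 with IFNγ or replicate 2 without it, at 0.0511 to 0.0709, and in sgCtrL without replicate 2 of the group without IFNγ, at 0.0665.

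Of the 8 collagen chains tested, 5 were lower in sgCtrL and 4 in Sin3Bsg1, and 0 were higher. Col3a1 was lower by -0.71 and -0.57, Col1a1 by -0.87 and -0.70 and Col11a2 by -2.04 and -2.43 on the log2 scale. The summed fibroblast markers were lower with IFNγ in both genotypes too, from 109.5 to 111.7 TPM to 73.1 to 73.7 TPM summed in sgCtrL and from 87.9 to 95.8 TPM to 61.4 to 66.8 TPM in Sin3Bsg1. Acta2 went the other way, from 0.337 ± 0.134 to 5.78 ± 0.558 TPM in sgCtrL and from 0.487 ± 0.194 to 5.34 ± 0.114 TPM in Sin3Bsg1 (SD, n = 3), and the part of these markers in the fall of Serpinh1 was not tested.

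The level of the members in control cells also differed between the experiments, which is given as a description because experiment and library batch cannot be told apart. P4ha1 lay at 62.7 ± 0.977 CPM (SD, n = 2) in untreated sgCtrL and at 102 ± 3.66 CPM (SD, n = 3) in sgCtrL without IFNγ, and P4ha2 at 22.5 ± 0.83 CPM (SD, n = 2) and 49.6 ± 0.963 CPM (SD, n = 3). Plod2 lay at 30.8 ± 0.86 and 51.0 ± 4.16 CPM and Loxl2 at 129 ± 2.14 and 208 ± 5.34 CPM (SD, n = 2 and 3). These 4 members, all named above as hypoxia targets, were higher in every library of the IFNγ experiment, whereas Plod3, Serpinh1 and above all P4ha3, at 25.4 ± 0.168 against 6.15 ± 1.35 CPM (SD, n = 2 and 3), were lower in every library. Plod1 overlapped. Of the 10073 genes with at least 5 CPM in both sets of controls, 32.7% were higher and 46.0% lower in every control library of the IFNγ experiment, and the 4 higher and 3 lower of 8 members are no result about the members as a group.

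Other hypoxia-response genes were set beside them. Of 12 listed, 10 could be compared, and 9 were higher in every control library of the IFNγ experiment, beside the 32.7% of all genes above, with a median log2 ratio of 0.34 where all genes had -0.06. Car9 and Adm were left out because a control library had 3 counts or fewer. Car9 was lower in every control library of the IFNγ experiment, at 0.605 against 0.173 CPM, and Adm was higher, at 0 against 0.533 CPM. Pgk1, a glycolytic enzyme, lay at 471 ± 1.02 and 854 ± 16.6 CPM, Kdm3a, a histone demethylase, at 99.2 ± 2.60 and 172 ± 1.69 CPM, and Bnip3, a mitophagy receptor, at 42.3 ± 2.49 and 63.3 ± 1.28 CPM (SD, n = 2 and 3). Vegfa was the exception among the 10 compared, at 240 ± 1.02 against 180 ± 1.13 CPM (SD, n = 2 and 3). The list was chosen with earlier results of these data known. Whether hypoxia had a part in the levels of these genes or of the members was not tested.

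**Figure D5:**
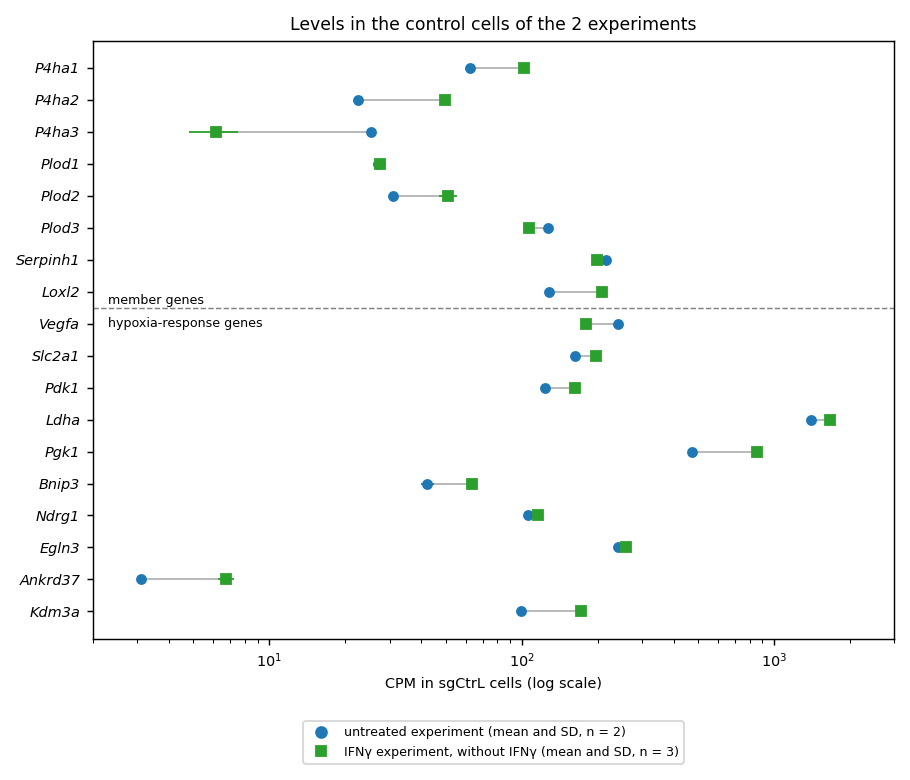
Mean CPM in sgCtrL cells (horizontal axis, log scale) in the untreated experiment (circles, SD, n = 2) and in the IFNγ experiment without IFNγ (squares, SD, n = 3) for the 8 expressed members and 10 hypoxia-response genes. P4ha1, P4ha2, Plod2, Loxl2 and 9 of the 10 hypoxia-response genes lie to the right in the IFNγ experiment, and P4ha3 lies furthest to the left of its untreated value.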

How the data were processed

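RNA-seq of KPC1199 cells was analysed from 2 gene tables holding estimated counts that the authors deposited, with 4 libraries in the untreated and 12 in the IFNγ table; 0 columns were left unmapped. The submitters' processing notes name fastp, HISAT2, StringTie and DESeq2 with the mm39 build, while the methods name mm9 and featureCounts, so the build of the counts is not settled, and the positions given come from GRCm39 with GENCODE annotation. The tables also hold a pooled column per group, which was not used, and a gene length, from which TPM was computed.

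The estimated counts were rounded and fitted with edgeR 4.0.16 in R 4.3.3 (limma 3.58.1, TMM scaling, filterByExpr, quasi-likelihood test), separately for each experiment and jointly for the difference between them, with Benjamini-Hochberg adjustment over all genes tested and a threshold of 0.05. CPM used TMM-scaled library sizes. Fits were tested on simulated counts. Alternatives were DESeq2 1.42.0, its size factors in edgeR, no filter, at least 10 counts in every library, a replicate block, the 6 compared libraries alone, limma voom with a variance factor per experiment for the joint fit, and leaving out each library. Tables and plots used Python 3.11.15, pandas 2.3.3, numpy 2.4.6 and matplotlib 3.10.9.

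The members and gene lists were chosen with earlier results of these data known. Partner genes were named by rule, as the 4 with the largest change per comparison among those called with a mean of at least 5 CPM over the libraries compared; other genes were named after their values were seen, as a gene of the same role, a substrate chain or a cell marker. Genes most alike in pattern were to be named for members that changed 1.5-fold in the IFNγ experiment, and no member did. Replicates with the same number correlated at -0.0286 to 0.119 in their deviations from the group means, and those with different numbers at -0.134 to 0.0601. The numbers were not taken as pairs, because the labels do not say that a number marks a shared day or batch. Counts of 3 or fewer were treated as the floor, which covers counting error only.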

Additional observations from a re-analysis of the deposited data

Results flagged for a closer look

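The genotype effect differed between the IFNγ experiment without IFNγ and the untreated experiment in 6 genes of collagen processing, by a test of the difference itself in the joint edgeR fit. Of the members, Plod2 differed by 0.46 (edgeR adjusted p = 0.0144), Serpinh1 by 0.36 (edgeR adjusted p = 0.00168) and P4ha1 by 0.34 (edgeR adjusted p = 0.0136) on the log2 scale. Of the partner genes, Loxl3 differed by 0.46 (edgeR adjusted p = 0.0175), Bmp1 by 0.41 (edgeR adjusted p = 0.00765) and Loxl4 by 0.23 (edgeR adjusted p = 0.0345). All 6 were lower in Sin3Bsg1 in the untreated experiment and had an effect of smaller size or of opposite sign without IFNγ. Only the Serpinh1 call held without any 1 of the 16 libraries, and each of the others was lost without at least 1 library, as given above. The cause was not tested.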

How the results depend on the processing

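Over all alternatives for single named genes, 1234 of 1350 kept direction and side of the threshold, 53 lost and 20 gained a call, and 43 changed sign. Members called without IFNγ were 1 with no filter, 4 with at least 10 counts in every library and 4 with the 6 compared libraries alone, which called 3995 genes in all. With IFNγ, 2 members were called with no filter and 2 with the replicate block, and the 6 libraries alone called 1500 genes. The interaction called 32 genes in DESeq2 and 115 with no filter. Estimates near 0 changed sign: P4ha1 under IFNγ in sgCtrL was -0.000588 in DESeq2 and -0.000154 with its size factors, Plod2 under IFNγ in Sin3Bsg1 was -0.0161 in both, -0.0061 with no filter and -0.0215 with at least 10 counts, and the Loxl2 difference between experiments was 0.000511, 0.000381, 0.00871 and 0.00844 in these 4 settings. The causes were not tested.

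When libraries were left out singly, the members called ran from 0 to 4 without IFNγ, 1 to 2 with IFNγ and 1 to 3 for the difference between experiments, and genes called from 1 to 33 for the interaction and 605 to 1696 for that difference. Log2 values that changed sign ran from -0.021 to 0.0217 for the Loxl2 difference and -0.00816 to 0.0558 for Loxl2 with IFNγ. For P4ha1 they ran from -0.0648 to 0.0449 under IFNγ in sgCtrL, -0.0672 to 0.0506 with IFNγ, -0.0115 to 0.0393 without it and -0.0989 to 0.0275 in the interaction. P4ha2 untreated ran from -0.00184 to 0.0721, P4ha3 from -0.234 to 0.108 under IFNγ in sgCtrL and -0.288 to 0.055 without IFNγ. Plod1 ran from -0.0298 to 0.0652 untreated, -0.0455 to 0.161 with IFNγ and -0.00768 to 0.207 in the interaction. Plod2 ran from -0.049 to 0.0641 under IFNγ in Sin3Bsg1, -0.0345 to 0.0744 in sgCtrL and -0.0896 to 0.0398 in the interaction, and Plod3 from -0.118 to 0.043 with IFNγ and -0.0373 to 0.133 in the interaction.

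Pairing by replicate number was not taken from the labels, which do not say that a number marks a shared day or batch. The replicate block brought Plod2 with IFNγ under the threshold (edgeR adjusted p = 0.0429), took the Loxl4 difference to 0.0534 and called 13 genes in the interaction. With 2 or 3 libraries a group, Lox and Loxl1 were not detectable at this depth.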

Other observations

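Single genes of the hypoxia response, some of whose known targets are members described above, were also called by genotype. Of 12 listed genes 11 were tested in the untreated experiment, and 3 were higher and 3 lower in Sin3Bsg1 by edgeR. Of all genes tested, 15.0% were higher and 15.7% lower. The median log2 fold change was -0.05 over the list and 0.00 over all genes, so the counts are no result about the list as a group. Bnip3, a mitophagy receptor, was lower by -0.34 and Egln3, a prolyl hydroxylase that acts on the hypoxia-inducible factors and not on collagen, by -0.36 on the log2 scale, while Ndrg1 was higher by 0.29. Without IFNγ, Vegfa, an angiogenic growth factor, was higher by 0.20 (edgeR adjusted p = 0.00575) and Kdm3a, a histone demethylase, by 0.17 (edgeR adjusted p = 0.016), and with IFNγ they were higher by 0.18 (edgeR adjusted p = 0.0112) and 0.20 (edgeR adjusted p = 0.00562). Pdk1 was lower with IFNγ, by -0.23 (edgeR adjusted p = 0.00626).

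IFNγ itself lowered Vegfa by -0.24 in sgCtrL and -0.26 in Sin3Bsg1 and Ndrg1 by -0.19 and -0.24, and raised Pgk1 by 0.19 and 0.18 on the log2 scale. The difference of the genotype effect between the experiments was called for Bnip3 (0.40) and Ndrg1 (-0.35) by edgeR. The summed level of the list was 2874 to 2881 TPM in sgCtrL and 2699 to 2727 TPM in Sin3Bsg1 in the untreated experiment, and 3832 to 3983 against 3992 to 4051 TPM without IFNγ.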
